A study of Mus musculus with 2 samples.

Results

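B cells were found in 1 of 2 islet single-cell RNA libraries, as 135 of the 4462 kept cell barcodes of the TBL/RβKO library and as 0 of the 4961 kept barcodes of the control library. A barcode was kept when it had more than 1000 detected genes and under 10% of its UMIs (molecular tags that mark captured transcripts) in mitochondrial genes. A kept barcode was counted as a B cell when at least 2 of the genes Cd79a, Cd79b and Ms4a1 had a UMI and Ins1, Ins2, Gcg, Sst and Ppy summed to under 500 UMIs per 10000. These values chose the members, so the levels of those genes and the member counts are a description.

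The islets came from mice of 5 weeks on a C57BL/6N background. TBL/RβKO mice carried Cre recombinase inserted at the endogenous Ins1 locus, which drives it in β-cells, together with floxed Tbl1x and Tbl1xr1, and controls were littermates without Cre, labelled wildtype. Each library held 150 islets pooled from 4 mice and cultured overnight, which left no replicates within a group and allowed no test. Intervals are exact 95% intervals (Clopper-Pearson for shares, Poisson for counts) and cover counting error only.

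B cells are lymphocytes that carry an immunoglobulin on their surface, where Cd79a and Cd79b relay its signal, and they present antigen to T cells on MHC class II. Resting B cells co-express IgM and IgD and circulate through lymphoid tissue. After activation some enter germinal centres, where they divide, mutate and switch their immunoglobulin genes, and others become antibody-secreting plasma cells.

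The genes that chose the cells lie on 3 chromosomes of GRCm39. Cd79a lies on chromosome 7 from 24596740 to 24601622 (plus strand), Cd79b on chromosome 11 from 106202167 to 106205588 (minus strand) and Ms4a1, which encodes the surface protein CD20, on chromosome 19 from 11227039 to 11243605 (minus strand). RefSeq promoter windows, from 250 bases before to 50 bases after the gene start, are shown for 3 genes of the B-cell lineage that these cells expressed, each holding a different motif of a lymphoid factor in capitals. Their positions are on GRCm38.p6 and are not comparable with the GRCm39 positions. In Cd79a (chr7:24897247-24897546, plus strand) the capitals mark GAGGAA, a motif of Ets factors, on the opposite strand. In Cd22 (chr7:30878979-30879278, minus strand), an inhibitory co-receptor, they mark the palindromic EBF motif on the strand shown, whose outer bases on each side were fixed and whose central pair was free. In Vpreb3 (chr10:75948050-75948349, plus strand), a chaperone-like protein of the early B-cell receptor, they mark the octamer ATGCAAAT on the opposite strand.
Cd79a: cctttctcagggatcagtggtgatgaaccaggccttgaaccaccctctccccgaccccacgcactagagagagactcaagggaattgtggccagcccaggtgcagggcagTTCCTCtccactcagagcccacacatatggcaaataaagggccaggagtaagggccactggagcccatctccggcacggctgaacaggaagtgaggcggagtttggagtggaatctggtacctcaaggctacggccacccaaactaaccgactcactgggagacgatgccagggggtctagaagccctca
Cd22: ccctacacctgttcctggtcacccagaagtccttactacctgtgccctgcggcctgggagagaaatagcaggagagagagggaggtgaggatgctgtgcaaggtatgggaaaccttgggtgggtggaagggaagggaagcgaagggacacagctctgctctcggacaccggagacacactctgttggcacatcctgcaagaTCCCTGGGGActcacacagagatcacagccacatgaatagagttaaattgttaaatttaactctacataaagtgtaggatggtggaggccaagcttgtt
Vpreb3: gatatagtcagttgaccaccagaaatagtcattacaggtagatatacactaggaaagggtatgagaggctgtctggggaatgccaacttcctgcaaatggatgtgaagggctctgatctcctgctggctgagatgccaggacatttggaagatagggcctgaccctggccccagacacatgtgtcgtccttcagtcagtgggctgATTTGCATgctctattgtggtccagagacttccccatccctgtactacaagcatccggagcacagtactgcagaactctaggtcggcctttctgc
Both strands were searched. GAGGAA was present in 28.3% of 32851 promoter windows, ATGCAAAT in 1.74% and the EBF motif in 0.904%. The 33 matched genes from the lists of B-cell receptor signalling and lineage transcription factors had 42 windows. Of these windows, 16 (in 15 genes) held GAGGAA, 1 (Blnk) held ATGCAAAT and 2 (Cd22 and Foxo1) held the EBF motif. A match describes the letters of a window and is not a bound site.

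In the TBL/RβKO library the B cells made up 3.03% of kept barcodes (interval 2.54 to 3.57%) and 15.9% (13.5 to 18.5%) of the 850 kept barcodes with few hormone UMIs. In the control library 0 of 4961 barcodes has an exact interval of 0 to 0.0743%, and a limit of 3 counts gives 0.0605%. Macrophages were kept barcodes with few hormone UMIs, at least 2 of 5 macrophage genes and fewer than 2 of the B-cell markers. They took 1.43% (71 barcodes, 1.12 to 1.80%) of the control library and 1.30% (58 barcodes, 0.988 to 1.68%) of the TBL/RβKO library, with intervals that overlap. The control set also held UMIs of endothelial genes. Flt1 had 484 UMIs there and 9 in the TBL/RβKO set, and Kdr had 340 and 7. Of the kept barcodes with few hormone UMIs, macrophages took 21.6% (17.3 to 26.5%) of 328 in the control library. In the TBL/RβKO library they took 6.82% (5.22 to 8.73%) of 850, and on this base the intervals do not overlap. Barcodes within the same hormone and B-cell marker limits that had at least 2 of 4 T-cell genes numbered 1 in the control and 15 in TBL/RβKO. The libraries shared 14 barcodes, none of which was a B cell. Genotype, pool of mice and library cannot be told apart for this difference.

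**Figure D1:**
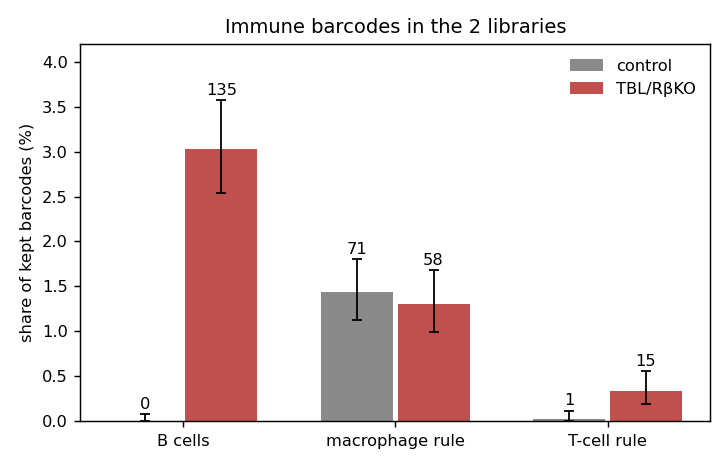
Share of kept barcodes (percent, bars, with exact 95% binomial intervals) chosen by the B-cell, macrophage and T-cell rules in the control (grey) and TBL/RβKO (red) libraries, with the number of barcodes above each bar. B cells numbered 0 and 135, while the macrophage intervals of the libraries overlap.

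All 3 markers had a UMI in 131 of the 135 cells and 2 of them in the other 4. Just outside the marker limit, exactly 1 marker had a UMI in 41 low-hormone barcodes of the TBL/RβKO library and 17 of the control library, of which 0 had 5 or more immunoglobulin UMIs. Of 674 low-hormone TBL/RβKO barcodes with 0 markers, 5 had 5 or more immunoglobulin UMIs. The highest hormone sum inside was 350 per 10000 and the lowest outside was 714, with 19 barcodes that had at least 2 markers above the limit. The cell with fewest genes had 1038, and the nearest barcode outside had 957. In the control library, 4 barcodes had at least 2 markers, with hormone sums of 2667 per 10000 or more and none with 5 or more immunoglobulin UMIs. Cd79a alone did not mark these cells, since it had a UMI in 16.7% of 4633 control barcodes and 12.04% of 3612 TBL/RβKO barcodes above the hormone limit, whereas Cd79b had 0 and 0.748%.

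The B cells held 1815662 UMIs together. A cell had between 2709 and 81819 UMIs (median 7968) and between 1038 and 8699 genes (median 2438), against medians of 18037 UMIs and 4101 genes for the macrophages. Doublets were not removed, and 7 cells had more than 6000 genes. The cell of 81819 UMIs carried 403 UMIs of Chga, an endocrine granule protein, and the cell of 72785 UMIs carried 285 UMIs of Krt18 and 81 of Krt19, keratins of ductal cells. Hormone UMIs were present in every cell, at 10.4 to 350 per 10000 (median 44.8). Ins2 stood at 3050 CPM (UMIs per 1000000 UMIs) in summed B cells and 2390 CPM in summed macrophages, and Gcg at 892 and 779 CPM. The cell of 81819 UMIs held 2543 of the 5538 Ins2 UMIs, and without it Ins2 stood at 1727 CPM and Gcg at 903 CPM in B cells.

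Levels were summed over the 135 cells and set against the other 4327 kept barcodes and against the 58 macrophages of the same library, as log2 ratios of CPM. Among 8917 genes with a mean of 10 CPM or more, 2023 (22.7%) were at least 2-fold higher and 2214 (24.8%) at least 2-fold lower than in the other barcodes, with a median log2 ratio of 0.03. Against macrophages 1899 (22.9%) of 8282 genes were higher and 1452 (17.5%) lower, with a median of 0.15. Leaving hormone and mitochondrial genes out of the totals lowered every log2 ratio over the other barcodes by a constant -0.41, moved the median of the genes then tested to -0.43 and changed the higher share of called genes from 47.7% to 31.0%. The same step changed ratios over macrophages by 0.03. Among the 20 genes of 50 CPM or more with the highest ratio over the other barcodes, Slpi, Ly6d and Fcrl5 were on no list. Slpi, a secreted protease inhibitor, stood at 1342 CPM against 0.461 CPM, Ly6d, a surface protein of the B lineage, at 751 against 0.501 CPM, and Fcrl5, an Fc receptor-like protein, at 62.2 against 0.0570 CPM.

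The list of B-cell receptor signalling holds Cd79a, Cd79b and Ms4a1, which chose the cells. Without these 3 genes, 18 of 19 were at least 2-fold higher than in the other barcodes (median log2 ratio 7.69), and 14 of 19 were higher and 1 lower than in macrophages. Bank1, a scaffold of receptor signalling, stood at 1039 CPM (993 to 1087) in B cells, 0.980 CPM in the other barcodes and 0.944 CPM, a count of 1 UMI, in macrophages. Blk, a Src-family kinase, stood at 403 CPM (374 to 433) in B cells and 0.228 CPM in the other barcodes, and had no UMI in macrophages. Shared leukocyte kinases differed less from macrophages: Lyn had a log2 ratio of 0.20 (0.03 to 0.38) and Syk of 1.36 (1.05 to 1.67). Cd81, a tetraspanin, was the member lower than in macrophages, at 135 against 640 CPM.

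Lineage transcription factors followed the same order, with 17 of 19 at least 2-fold higher than in the other barcodes (median 5.59), and 15 of 20 higher and 2 lower than in macrophages. Ebf1, which sets the B-lineage program, stood at 1366 CPM (1313 to 1421) with a UMI in 135 of 135 cells. Pax5, which maintains B-cell identity, stood at 312 CPM (287 to 339) with a UMI in 117 cells and in none of the macrophages. Bach2, a repressor of plasma cell differentiation, stood at 800 CPM (759 to 842) against 41.5 CPM in macrophages. Spi1, which encodes the myeloid and lymphoid factor PU.1, was lower in B cells than in macrophages (60.0 against 395 CPM). Prdm1, the factor of plasma cell differentiation, had 9 UMIs in all B cells.

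**Figure D2:**
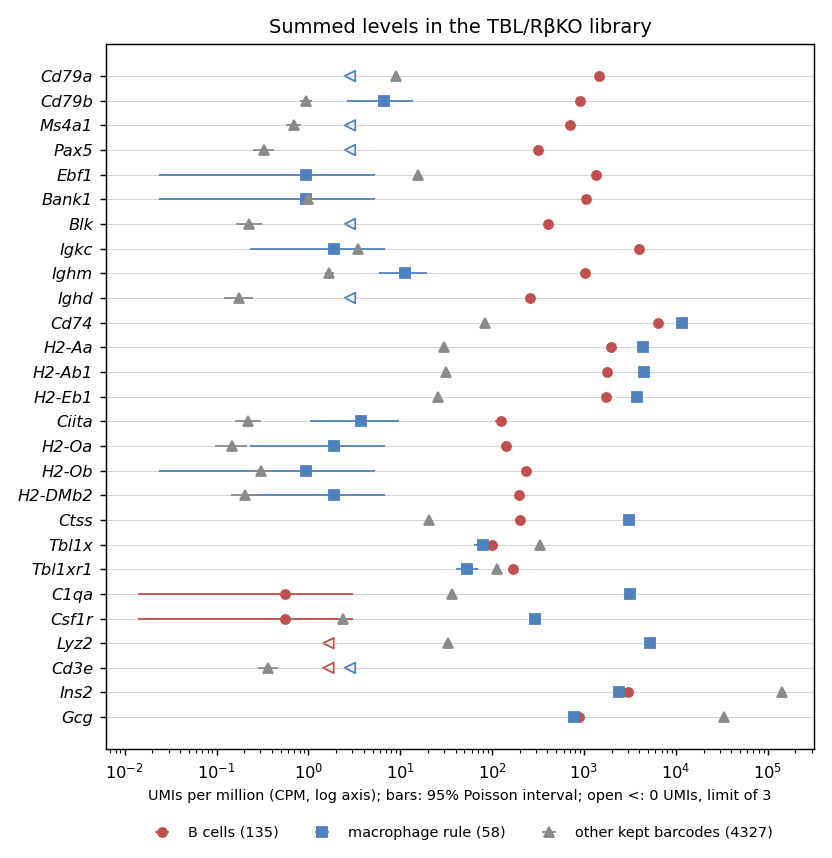
Summed level of 27 genes in CPM (log axis) in B cells (red circles), macrophages (blue squares) and the other kept barcodes (grey triangles) of the TBL/RβKO library, with exact 95% Poisson intervals and open arrowheads at the limit of 3 counts where a gene had 0 UMIs. Lineage and receptor genes are highest in B cells, H2-Aa, H2-Ab1, H2-Eb1 and Cd74 are higher in macrophages, and Lyz2 and Cd3e have 0 UMIs in B cells.

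All 15 tested genes of MHC class II presentation were at least 2-fold higher in B cells than in the other barcodes (median 6.07), and against macrophages they split into 8 higher and 6 lower. The antigen-binding chains H2-Aa, H2-Ab1 and H2-Eb1 were lower than in macrophages, with H2-Aa at 1971 against 4382 CPM, H2-Ab1 at 1766 against 4531 CPM and H2-Eb1 at 1733 against 3747 CPM. H2-Eb2, a further beta chain, went the other way, with 84.8 CPM (72.0 to 99.3) in B cells and 0 UMIs in macrophages. Cd74, the invariant chain, stood at 6334 against 11600.4 CPM (log2 ratio -0.87). Ctss, the protease that trims the invariant chain, had the lowest ratio of the list at -3.95 (199 against 3081 CPM). The modulators of peptide loading H2-Oa and H2-Ob and the chain H2-DMb2 were higher in B cells. H2-Ob stood at 236 CPM in B cells and 1 UMI in macrophages (log2 ratio 7.96, 5.48 to 13.27), H2-Oa at 141 CPM and 2 UMIs (6.22, 4.36 to 9.28) and H2-DMb2 at 198 CPM and 2 UMIs (6.71, 4.85 to 9.77). Ciita, the class II transactivator, stood at 124 CPM against 3.77 CPM (5.04, 3.67 to 6.93). For MHC class I presentation, 10 of 11 genes were higher than in the other barcodes and 2 of 11 higher and 3 lower than in macrophages, with B2m at 651 against 2681 CPM.

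Receptors for homing and survival were higher than in the other barcodes in 17 of 17 tested genes (median 7.71) and higher than in macrophages in 12 of 17, with 1 lower (Il4ra, a cytokine receptor, at 27.5 against 84.9 CPM). Ccr6, a chemokine receptor, had 180 CPM (161 to 200) and UMIs in 80 cells, and no UMI in macrophages. In barcodes above the hormone limit Ccr6 had 24 UMIs in TBL/RβKO and none in the control. Ccr7, which directs cells into lymph nodes, had UMIs in 74 cells, and Cxcr5, which directs them into follicles, in 75. Tnfrsf13c, the BAFF receptor, had UMIs in 105 cells. After thinning each cell to 2500 UMIs, Ccr7 had a UMI in 22.2% of B cells, Cxcr5 in 18.5% and Tnfrsf13c in 43.0%, and in 0% of the 55 macrophages of that depth. Cd5, a marker of B-1 cells, had UMIs in 4 cells. It is on the list of 12 genes of B-1 and marginal zone cells, which held 1908 UMIs in 118 cells, 1529 of them of Plac8. Of 5 tested genes of this list, 3 were higher than in the other barcodes and 0 lower. Against macrophages 2 of 6 were higher and 2 lower.

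Heavy chains were mostly of the unswitched kind. Ighm held most heavy-chain UMIs in 116 of 135 cells (85.9%, 78.9 to 91.3%) and Ighd in 15, and both had a UMI in 113 cells (83.7%). A UMI of a switched class was present in 32 cells, and Ighg2b and Ighg3 held most heavy-chain UMIs in 2 cells each. Per cell, Ighm had between 0 and 102 UMIs (median 9) and Ighd between 0 and 15 (median 3). Ighd stood at 261 CPM (238 to 286) and had no UMI in macrophages. Ighg2b stood at 692 CPM, of which 1147 of 1257 UMIs lay in 1 cell.

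Light chains of both kinds were counted in nearly every cell. Igkc, the kappa constant region on chromosome 6 from 70703419 to 70703950, had between 0 and 1778 UMIs per cell (median 29), and Iglc1, Iglc2 and Iglc3, the lambda constant regions, had between 0 and 218 together (median 21). Both kinds had a UMI in 131 of 135 cells, and at least 5 UMIs each in 128 (94.8%, 89.6 to 97.9%). Igkc took a median of 57.9% of a cell's light-chain UMIs, with the middle quartiles at 44.8 and 70.7%. It was above 50% in 88 cells and lambda in 42, with 5 equal, and 90% or more belonged to Igkc in 5 cells and to lambda in 3. Counted by gene, with Iglc1, Iglc2 and Iglc3 taken apart, Igkc had most UMIs in 116 cells. Iglc2 and Iglc3 are near-identical copies, so the split between them is uncertain. The 116 cells rest on that split, whereas the other lambda values use the sum. Light-chain UMIs outside the B cells were few, at 3 in 58 macrophages and 892 in 3612 hormone barcodes, a mean of 0.0517 and 0.247 per barcode. Their part in the mixed counts was not tested. Whether the mixed counts come from expression of both chains in a cell or from how reads were assigned to these genes cannot be told from counts. This was not tested either.

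**Figure D3:**
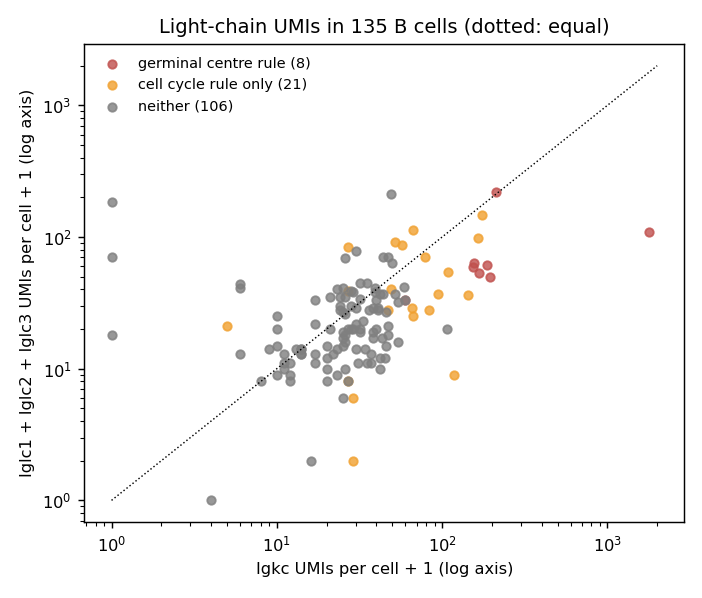
Igkc UMIs and summed Iglc1, Iglc2 and Iglc3 UMIs in each of 135 B cells, each plus 1 on log axes, coloured by the gene rules described with the dividing cells. Most cells lie near the dotted line of equal counts, and 1 cell stands apart at 1778 Igkc UMIs.

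Few UMIs lay on variable segments. Of 160 listed Igkv segments, 26 had a UMI, in 41 cells. Of 183 Ighv segments, 31 had a UMI, in 42 cells, and the 3 Iglv segments had UMIs in 24 cells. No cell had more than 2 segments of a family.

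Germinal centre genes were counted in a smaller set of B cells than cell cycle genes. The cells were separated by rules chosen after the values were seen. A germinal centre rule took cells with at least 2 of S1pr2, Gcsam, Mybl1, Rgs13 and Nuggc and found 8 of 135 (5.93%, 2.59 to 11.3%). A cell cycle rule took cells with at least 4 of 12 cell cycle genes and found 29 (21.5%, 14.9 to 29.4%), among them all 8 of the first rule, which left 21 with the cell cycle rule only and 106 with neither. Just outside, 6 cells had 1 germinal centre gene, and 1 cell had 3 cell cycle genes. Depth differed between the 3 sets, with median UMIs of 43323, 27004 and 6500.5, and a deeper cell meets either rule more easily. With cells thinned to 2500 UMIs, 2 or more cell cycle genes remained in 8 of 8, 13 of 21 and 1 of 106. At this depth 1 or more germinal centre genes remained in 5 of 8, 2 of 21 and 0 of 106. The sets were those chosen at full depth, and these limits are lower than those of the rules. The part of depth in the counts of cells by the rules themselves was not tested.

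**Figure D4:**
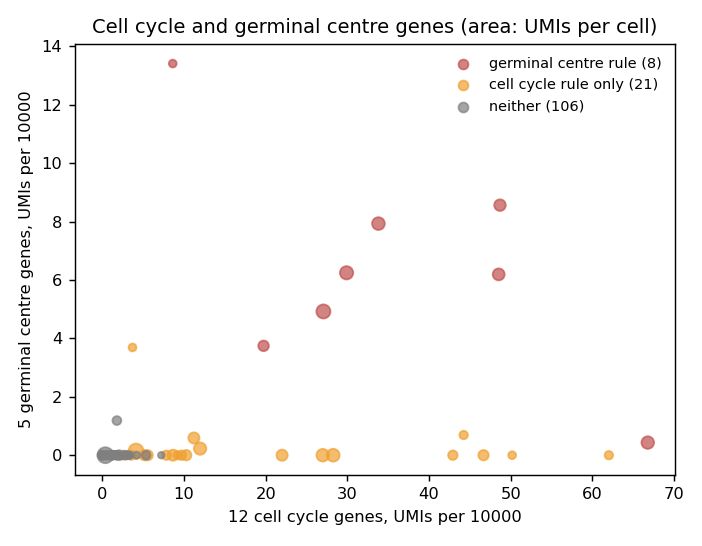
UMIs per 10000 of 5 germinal centre genes (vertical) and 12 cell cycle genes (horizontal) in each B cell, with the area of a point set by its UMIs. The 8 cells of the germinal centre rule hold both kinds of UMIs, and most of the 21 cells of the cell cycle rule alone lie along the horizontal axis.

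Some genes that neither rule used also differed between these sets of cells. Several were picked after their values were seen and no share over all genes is given, so they are a description. Cells of the germinal centre rule had no UMI of Ccr7, Fcer2a (the receptor CD23), S1pr1 (a receptor for exit from tissue), Ccr6 or Plac8, a limit of 3 counts in 325544 UMIs, while cells with neither rule stood at 149, 179, 164, 212 and 1265 CPM. Ighd stood at 9.22 CPM (1.90 to 26.9) in the germinal centre rule cells, 91.6 CPM (68.8 to 120) in the cell cycle rule only and 463 CPM (420 to 510) in neither. Klf2, a factor of quiescent lymphocytes, stood at 3.07, 265 and 324 CPM. After thinning each cell to 2500 UMIs, Ighd had a UMI in 0 of 8, 4 of 21 and 76 of 106 cells, and Plac8 in 0 of 8, 12 of 21 and 71 of 106. In the other direction, Basp1 stood at 289, 127 and 17.8 CPM, with 57 of the 75 UMIs of the cell cycle rule only in 1 cell. Neil1, a base-excision glycosylase, stood at 104, 8.48 and 6.66 CPM, and Fas, a death receptor, at 61.4, 20.4 and 5.55 CPM. Bcl6, the germinal centre repressor, stood at 86.0 CPM (57.2 to 124) against 10.2 CPM (3.74 to 22.2) and 40.0 CPM (28.0 to 55.3). Vpreb3 stood at 501 CPM against 195 and 184 CPM.

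Jchain, which joins IgM and IgA into polymers, had 538 UMIs in B cells, all in 7 of the 8 cells of the germinal centre rule. A cell of 46264 UMIs carried 447 of them, with 1147 UMIs of Ighg2b, 1778 of Igkc, 68 of Xbp1, 5 of Sdc1 and 4 of Prdm1, genes of antibody-secreting cells, and with 81 of Mki67 and none of Pax5. This cell met the germinal centre rule with 1 UMI each of S1pr2 and Nuggc. Without it the 7 other cells held Jchain at 326 CPM (262 to 400), Ighg2b at 233 CPM in place of 3723 CPM, Igkc at 4014 CPM in place of 8905 CPM and Xbp1 at 75.2 CPM in place of 273 CPM. Ighd, Basp1 and Neil1 stood at 10.7, 308 and 118 CPM in the 7 cells. The list of early B-cell stages, which holds Vpreb3, summed to 362 CPM in these cells in place of 501 CPM.

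**Figure D5:**
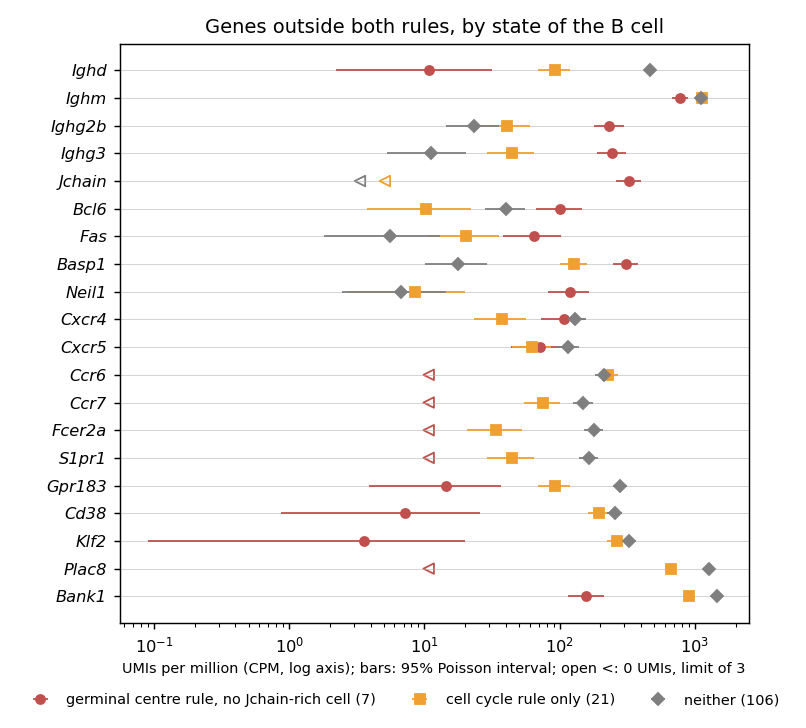
Level of 20 genes outside both rules, in CPM (log axis), in 7 cells of the germinal centre rule without the Jchain-rich cell (red), 21 cells of the cell cycle rule only (orange) and 106 other B cells (grey), with exact 95% Poisson intervals. Open arrowheads mark the limit of 3 counts at 0 UMIs, as for Ccr7, Fcer2a and Plac8 in the red set.

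Early stages and other lineages were checked in the same cells. Vpreb3 had 444 UMIs in 83 cells, while Rag1, Rag2, Dntt, Igll1 and Kit, genes of bone marrow precursors, had 0 UMIs. Tnfrsf17, a receptor of plasma cells, had 0 UMIs. Of 10 T-cell genes, 7 had 0 UMIs and Lck held 56 of 67. Of 6 endothelial genes, Pecam1 held 334 of 346 UMIs, at 184 CPM against 8.92 CPM in the other barcodes. Of 9 dendritic cell genes, Flt3 held 55 of 63 UMIs, at 30.3 against 0.142 CPM. Of 10 macrophage genes, Lyz2, Fcgr1 and Mrc1 had 0 UMIs, and Apoe held 1259 of 1283. Apoe stood at 693 CPM in B cells against 15028 CPM in macrophages. Ductal and acinar genes held 634 UMIs, of which 556 lay in the cell of 72785 UMIs.

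The genes targeted in this study had no control B cells to be compared with. Tbl1x, on the X chromosome from 76554141 to 76706597, stood at 99.1 CPM (85.2 to 115) in B cells, 79.3 CPM in macrophages of the same library and 88.0 CPM in control macrophages. Tbl1xr1, on chromosome 3 from 22129947 to 22270770, stood at 170 CPM (151 to 190), 53.8 CPM and 51.5 CPM. The control macrophages also held UMIs of endothelial genes, and the part of these in their values was not tested. In barcodes above the hormone limit Tbl1x stood at 118 CPM in the control and 333 CPM in TBL/RβKO, and Tbl1xr1 at 23.9 and 111 CPM. Ins1, Ins2, Gcg, Sst and Ppy took 45.8% and 26.3% of the UMIs of these sums, so CPM of other genes are not on the same base. The part of this in the difference was not tested. The 3′ counts of Tbl1x and Tbl1xr1 were not tied to the floxed exons, so they do not check the deletion. By qPCR, the study reported lower levels of both genes in TBL/RβKO islets at this age. Cre had 0 UMIs in B cells and in the control library, 4 in macrophages and 3175 in TBL/RβKO barcodes above the hormone limit.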

How the data were processed

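Per the labels, single-cell libraries were made with Chromium 3′ chemistry from pooled islets, 1 library a group. The deposited matrices hold raw UMI counts, unnormalized. The submitters' processing notes name Cell Ranger 7.1.0 and GRCm39. The control library held 7067 barcodes and 241434108 UMIs, the TBL/RβKO library 5833 and 185062206, over 22383 features.

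UMIs were summed over cells of a library and scaled to CPM, with no doublet caller and no correction for free RNA. A gene at 0 UMIs was set to 3 counts, was never called higher in the sum where it was 0, and got no fold where both sums were at or under 3. Gene positions came from GENCODE M39, matched by identifier for 15 of 15 genes. The calculation was tested on simulated data. Tools were scipy 1.17.1, numpy 2.4.6, matplotlib 3.10.9 and pandas 2.3.3 under Python 3.11.15.

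The planned comparison of B cells between libraries could not be made because the control held none. B cells were compared with other barcodes of their own library in its place, over genes with a mean of 10 CPM or more. Named genes are those of 24 lists and the 20 with the highest ratio over other barcodes at 50 CPM or more (planned for both libraries, applied to 1), with others chosen for the sets of dividing cells after their values were seen. Members, lists and rules were chosen with earlier results of these data known. Results on some genes are not reported here.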

Additional observations from a re-analysis of the deposited data

Results flagged for a closer look

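Beyond the 135 cells, 12 barcodes of the TBL/RβKO library had at least 2 B-cell markers and 5 or more immunoglobulin UMIs but lay over the hormone limit, against 0 in the control library. Their UMIs ranged from 9071 to 125692 (median 91616), and 9 of them had more than 6000 genes. They were used in no sum of B cells.

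T-cell genes marked 15 barcodes in the TBL/RβKO library (0.336%, 0.188 to 0.554%) and 1 in the control library, with a median of 6510 UMIs in the former. Both differences rest on 1 library a group and were not tested.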

How the results depend on the processing

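The 0 B cells of the control library stayed within the interval of the value reported under each alternative run. The share of cells with Igkc as the leading light-chain gene, with the Iglc genes counted apart, did so too. For the control 0, the runs on the hormone limit and the markers could not give another value. The highest hormone limit run was 1000. The 4 control barcodes with at least 2 markers had hormone sums of 2667 or more on the same scale. The marker run asked for all 3 markers, which cannot add cells. These runs therefore did not test the absence of control B cells. The TBL/RβKO share was 2.26% with the study's limits of more than 2500 and fewer than 6000 genes, and 15.9% of barcodes with low hormones. The germinal centre rule found 5 cells with those gene limits and 5 when cells with more than 6000 genes were left out, an alternative chosen after seeing the data. With at least 100 UMIs in place of a mean CPM, 2590 genes were higher and 4005 lower. With at least 1 UMI, 3291 were higher and 4005 lower. The median log2 ratio of all genes over the other barcodes was -0.17 with the narrower gene limits, -0.43 with hormone and mitochondrial genes left out of totals, -0.23 as a mean over cells and -0.016 without the large cells. The list of immediate early genes had a median of 0.18, and -0.23 with hormone and mitochondrial genes left out of totals. Of 179 values of list medians, 153 moved by less than 1.5-fold, 25 moved by more without changing sign and 1 changed sign. The cause of these moves was not tested. Ratios of TBL/RβKO over control B cells were not run, since no control B cell was found. No paired analysis was possible because each group had 1 library and the control held no B cell. Depth limits low genes, since 0 UMIs in the B cells allows up to 1.65 CPM.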

Other observations

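Hsp90ab1, a cytosolic chaperone, stood at 2578 CPM in B cells, 1004 CPM in the other barcodes and 1461 CPM in macrophages, and the 11 heat shock genes summed to 7698 CPM in cells of the germinal centre rule, 8144 CPM in the cell cycle rule only and 3583 CPM in neither. Hspa1a and Hspa1b, the inducible chaperones, had 0 UMIs in B cells. Fos, an immediate early factor, stood at 71.0 CPM in B cells and 788 CPM in macrophages. Cd69, an early activation marker, stood at 155 CPM in B cells against 5.66 CPM in macrophages, with UMIs in 94 of 135 B cells. Interferon response genes were lower than in macrophages for several members, with Bst2 at 37.5 against 992 CPM and Irf7 at 9.91 against 109 CPM, while Ifi203 was higher at 127 against 15.1 CPM.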
